A study of Mus musculus with 6 samples.

Results

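The class I olfactory receptor cluster is a block of genes on mouse chromosome 7 that encode receptors for odorants. Its members were taken by position: every protein-coding gene whose symbol starts with Olfr between 102.0 and 105.5 Mb of chromosome 7 in the mm10 assembly. This gave 126 of the 21900 protein-coding genes in the RefSeq gene table of assembly GRCm38.p6, the chromosome coordinates of which are those of mm10. The gene table does not give receptor classes, so the class is that of the label. The members run from Olfr543 (start 102476773) to Olfr692 (end 105369317), a span of 2.89 Mb. The nearest other receptor genes on the chromosome are Olfr521, 2.71 Mb below, and Olfr693, 1.31 Mb above. The rule used no peak.

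Olfactory receptors are G protein-coupled receptors of olfactory sensory neurons, and each such neuron as a rule uses a single allele of a single receptor gene and keeps the rest silent. Class I receptors resemble those of fish, and in the mouse their genes lie together on chromosome 7, around the beta-globin genes, which red blood cell precursors use. Receptor coding sequence sits in a single exon, and any upstream exons are untranslated. Most of these genes have no known use in the retina, although a few (Olfr78, a receptor for short-chain fatty acids, and Olfr558) are also used outside the nose.

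The data are 6 BMAL1 chromatin immunoprecipitation sequencing (ChIP-seq) libraries of retina, 3 from Bmal1 CKO mice (a conditional knockout, libraries Bmal1 CKO 1 to 3) and 3 from wild-type mice (Control 1 to 3), all C57BL/6. ChIP-seq sequences the DNA that an antibody recovers from chromatin, here a rabbit antibody against the clock transcription factor BMAL1. The labels give no age, no time of day, no Cre driver and no cell type for the deletion, and give weaning at postnatal day 20 and no external treatment. Each library has 1 deposited peak list with, per peak, a summit and a fold, the authors' value for how far the summit stands above the background around it in the same library.

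The lists differ too much in length to serve as like replicates. Bmal1 CKO 2 held 138254 peaks and Bmal1 CKO 1 and 3 held 1444 and 519, while Control 1 held 179475 and Control 2 and 3 held 410 and 372. The background that the deposited fold and p-value imply was 5.83 fragments per base in Bmal1 CKO 2 and 3.46 in Control 1, the 2 libraries with long lists. It was 2.78 in Bmal1 CKO 1 and 0.560 to 0.852 in Bmal1 CKO 3 and Control 2 and 3. Peak lists do not measure RNA, so they cannot check the tissue label or the loss of Bmal1. Of 10 photoreceptor marker genes, 5 had an end peak in Bmal1 CKO 2 and 6 in Control 1, and those with none in either included Nrl and Sag. Of 10 olfactory sensory neuron markers 3 had one in each of the long lists (Gnal, Ano2 and Cnga4), and Omp and Cnga2, which define these neurons, had none in either.

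The starts of these genes are shown here for the pair of members with the highest folds in both long lists among those the sequence table holds. The summits of both lay further inside the gene, beyond the printed bases. They are windows from 250 bases before to 50 bases after the annotated start, from RefSeq (GRCm38.p6), which held 109 of the 126 members, 55 on the plus and 54 on the minus strand. Capitals mark the first 50 bases of the gene. The window of Olfr601 is chr7:103359164-103359463, minus strand, and that of Olfr552 is chr7:102604106-102604405, plus strand.
Olfr601: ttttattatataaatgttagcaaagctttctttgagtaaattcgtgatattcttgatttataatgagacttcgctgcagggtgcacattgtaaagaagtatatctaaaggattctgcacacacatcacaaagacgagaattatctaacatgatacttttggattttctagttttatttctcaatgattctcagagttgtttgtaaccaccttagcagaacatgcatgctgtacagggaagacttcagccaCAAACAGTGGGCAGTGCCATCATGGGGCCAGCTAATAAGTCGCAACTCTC
Olfr552: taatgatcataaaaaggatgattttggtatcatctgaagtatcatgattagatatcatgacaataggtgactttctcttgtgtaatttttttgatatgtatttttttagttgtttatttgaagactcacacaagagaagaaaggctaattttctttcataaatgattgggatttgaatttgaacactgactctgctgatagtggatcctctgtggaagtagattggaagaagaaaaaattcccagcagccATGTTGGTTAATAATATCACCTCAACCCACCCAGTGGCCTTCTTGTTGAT

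In Olfr552 the annotated gene begins with the letters ATG of a start codon. This held for 82 of the 109 member windows (75.2%), against 5.83% of all 32851 windows in the table. For most members the annotated end at the 5′ side is therefore the start of the coding sequence and not a place where transcription starts. Member genes had a median length of 957 bp, against 17146 bp for all protein-coding genes, and 109 of the 126 were up to 1200 bp long. A window of 1 kb on each side of both ends thus covers the whole of a typical member.

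Members had peaks at their ends in the long list of each genotype, and no member had one in any of the other 4 lists. A peak counted as an end peak when its summit lay within 1 kb of an annotated end. In Bmal1 CKO 2, 30 of 126 members had one (23.8%, exact 95% binomial interval 16.7% to 32.2%), where 58.9% of the 21900 genes did. In Control 1, 33 of 126 had one (26.2%, interval 18.8% to 34.8%), where 69.5% of the 21900 genes did. The intervals cover counting error only. Among genes of up to 1200 bp, 23.9% of 109 members and 31.8% of 974 genes that are no receptors had an end peak in Bmal1 CKO 2. In Control 1 these shares were 26.6% and 37.3%. The other lists had 0 of 126, where the share of all 21900 genes was 0.342% for Bmal1 CKO 1, 0.105% for Bmal1 CKO 3 and 0.0594% for each of Control 2 and Control 3. A count of 0 is therefore near the background of these 4 lists. End windows held 3.10 kb per member and 3.62 kb per protein-coding gene once shared bases were counted once.

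Between genotypes the share of members with an end peak was 7.94% ± 13.7 in Bmal1 CKO libraries and 8.73% ± 15.1 in Control libraries (SD, n = 3 each). The difference of −0.794 percentage points was far smaller than the spread between replicates (exact permutation test, two-sided, over 20 assignments, p = 1, smallest possible 0.1). Its direction turned without Bmal1 CKO 1 or Bmal1 CKO 3 (3.17 each) and without Control 1 (7.94), and it was −8.73 without Bmal1 CKO 2 and −5.16 without Control 2 or Control 3. With 1 long list per genotype the comparison rests on a single library on each side. Nothing in the labels says which libraries were handled together, and the background level and the list length differ between libraries along with the counts. Their part in the counts was not tested.

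**Figure D1:**
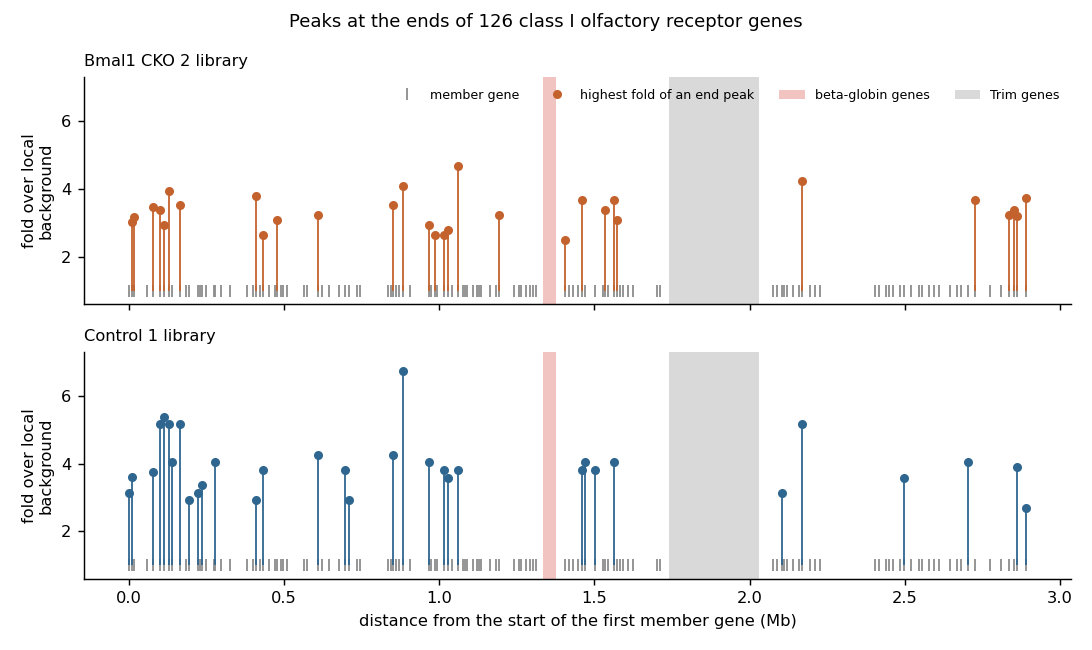
Highest fold of an end peak for each of the 126 members, by distance in Mb from the start of the first member, in Bmal1 CKO 2 (top) and Control 1 (bottom). Grey ticks are member genes, the red band holds the beta-globin genes and the grey band the Trim genes. End peaks were listed at 30 members in Bmal1 CKO 2 and at 33 in Control 1, and they lie closer together to the left of the red band than to the right of the grey one.

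The members' peaks were small and stood close to the general level. In Bmal1 CKO 2 the 33 peaks at member ends had folds of 2.49 to 4.68 (median 3.22), and in Control 1 the 35 peaks had folds of 2.69 to 6.73 (median 3.81). No peak was shared by a pair of members. The median of the highest end fold per gene was 3.29 for members and 3.10 for all protein-coding genes in Bmal1 CKO 2, and 3.81 and 3.93 in Control 1. Solved from the deposited fold and p-value, the summits stacked 16 to 31 fragments (median 22) in Bmal1 CKO 2 and 11 to 29 (median 16) in Control 1. At 28 of the 33 and 31 of the 35 peaks the background was the genome-wide level of the library, 5.83 and 3.46 fragments.

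The summits lay inside the receptor genes and hardly ever beside them. Of the end peaks of members, 30 of 33 (90.9%) in Bmal1 CKO 2 and 34 of 35 (97.1%) in Control 1 had their summit between the annotated start and end, where 64.4% and 67.8% of all pairs of a protein-coding gene and an end peak did. The exceptions were a summit 18 bp before the start of Olfr642 and single summits 884 bp before Olfr639 and 882 bp before Olfr686 in Bmal1 CKO 2, and a summit 436 bp before Olfr653 in Control 1. Olfr639 and Olfr686 also had a summit inside the gene. Counted over the whole gene body, 32 members held a summit in Bmal1 CKO 2 and 36 in Control 1, where 69.0% and 78.9% of all protein-coding genes did, and 23 members held one in both. These shares are not matched for length, as the median was 957 bp for members and 17146 bp for all protein-coding genes. Per Mb of gene body, members held 136 summits in Bmal1 CKO 2 and 155 in Control 1, and all protein-coding genes 63.2 and 86.0. Among genes of up to 1200 bp the order was the reverse. The 109 members of that length held 245 per Mb in Bmal1 CKO 2 and 274 in Control 1, and the 974 genes that are no receptors held 334 and 403. Olfr560 lies inside the longer model of Olfr78, so a summit there counts for both.

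Around the middle of the 109 members of up to 1200 bp, Bmal1 CKO 2 had 27 summits within 500 bp and 2 between 500 and 1500 bp. Control 1 had 29 and 1. Per 100 genes and kb this was 24.8 and 0.917 summits in Bmal1 CKO 2, and 26.6 and 0.459 in Control 1. From 1500 to 5000 bp the values were 1.05 and 1.57. The 831 receptor genes of that length elsewhere in the genome showed the same form, with 17.1 summits per 100 genes and kb within 500 bp and 1.08 between 500 and 1500 bp in Bmal1 CKO 2, and 18.1 and 1.08 in Control 1. Summits over the gene body were thus also seen at receptor genes outside the cluster.

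**Figure D2:**
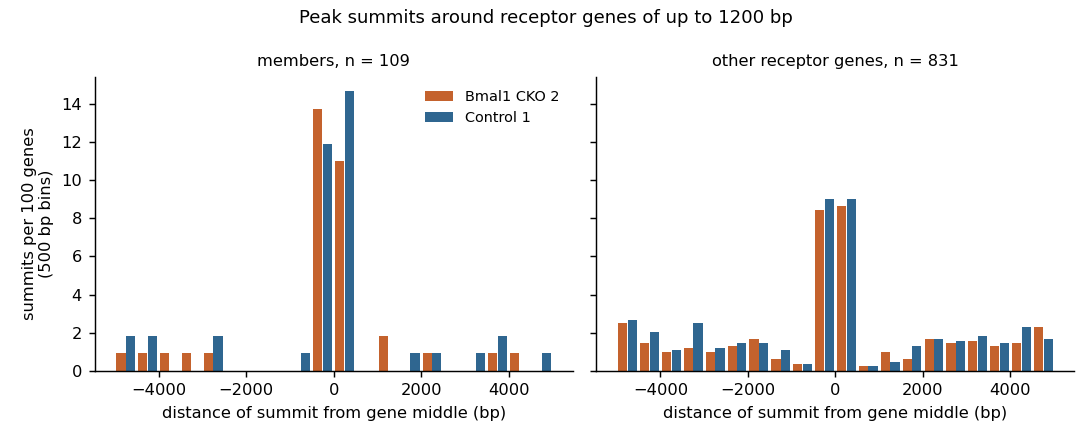
Peak summits per 100 genes in 500 bp bins, by distance in bp from the middle of the gene, for members (left) and other olfactory receptor genes (right) of up to 1200 bp, in Bmal1 CKO 2 and Control 1. In all 4 sets the bars rise over the gene itself and are low just outside it, with 27 and 29 member summits within 500 bp of the middle against 2 and 1 in the next 1 kb on both sides.

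Where the strand was known, the summits inside members of up to 1200 bp were fewest in the last part of the gene. In Bmal1 CKO 2, with each gene cut into 3 equal parts, 8 of 23 lay in the first, 12 in the middle and 3 in the last part. In Control 1 the counts were 9, 11 and 2 of 22. The median position was 47.7% of the length from the annotated start in Bmal1 CKO 2 and 40.6% in Control 1.

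Counted by sequence, short members held more summits inside than beside them. Members of up to 1200 bp held 245 summits per Mb in Bmal1 CKO 2 (26 summits, exact 95% Poisson interval 160 to 359) and 274 in Control 1 (29 summits, 183 to 393). Within 1 kb outside them the density was 13.9 (3 summits, 2.86 to 40.6) and 4.63 (1 summit, 0.117 to 25.8). Over 1 kb from any protein-coding gene it was 28.1 (21.4 to 36.2) and 38.4 (30.5 to 47.7). Within each of the long lists the interval for the inside of these members did not overlap those of both other parts. These intervals cover counting error within 1 library only. The gene body was chosen as a part after seeing values, so this is a description and not a test. The 17 longer members held 58.8 summits per Mb in Bmal1 CKO 2 and 78.4 in Control 1, and all 126 together 136 and 155. Some other genes of the interval reached similar or higher densities inside, with 581 and 727 per Mb in the 3 Ubqln genes (4 and 5 summits) and 259 in each long list in the 5 beta-globin genes (2 summits each). Base composition moved with this boundary: in the member windows the median share of G and C was 36.4% in the 250 bases before the start and 46% in the first 50 bases of the gene, and it was higher inside in 96 of 109. In all 32851 windows the medians were 52.4% and 56%, and the share was higher inside in 64.6% of them. It was higher inside in 84.9% of the 839 windows of other receptor genes, beside 88.1% of the member windows. The part of base composition in the peaks was not tested.

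**Figure D3:**
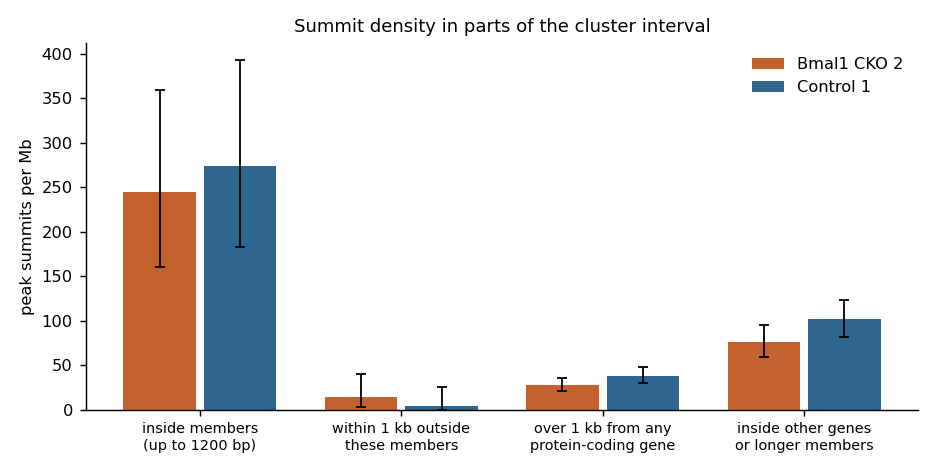
Peak summits per Mb in 4 parts of the cluster interval in Bmal1 CKO 2 and Control 1, with exact 95% Poisson intervals as error bars, which cover counting error only. The bars inside members of up to 1200 bp, at 245 and 274 summits per Mb, are the highest of the 4 parts drawn.

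Members with peaks in both long lists numbered 20, which is 66.7% of the members listed in Bmal1 CKO 2 and 60.6% of those listed in Control 1. Of the 21900 genes 54.7% were listed in both, which was 92.8% of the genes in the Bmal1 CKO 2 list and 78.6% of those in the Control 1 list. At all 20 shared members the peaks of the 2 libraries overlapped, with summits 5 to 361 bp apart (median 67.0 bp). These members are described next by the lower of their 2 folds. None had a peak in the other 4 libraries.

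Olfr658 (chr7:104642880-104647305), above the Trim genes, had a fold of 4.24 in Bmal1 CKO 2, from 28 stacked fragments (exact 95% Poisson interval 18.6 to 40.5), and of 5.16 in Control 1, from 22 fragments (13.8 to 33.3). Olfr601 (chr7:103358224-103359213), one of the genes whose start is printed above, had a fold of 4.10 in Bmal1 CKO 2, from 27 fragments, and of 6.73 in Control 1, from 29 fragments, the highest of any member in that library. Its summits lay 363 bp and 415 bp inside the gene from the annotated start, and so beyond the printed window. Olfr552 (chr7:102604356-102605309), the other printed gene, had 3.95 in Bmal1 CKO 2 and 5.16 in Control 1, with summits 430 bp and 519 bp from the start codon. In both genes the printed window itself held no summit.

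Olfr612 (chr7:103538261-103539232) had the highest fold of any member in Bmal1 CKO 2, 4.68 from 31 fragments, against 3.81 from 16 fragments in Control 1. Olfr632 had 3.66 in Bmal1 CKO 2 and 3.81 in Control 1, and Olfr641 had 3.66 and 4.04. Olfr598 had 3.51 in Bmal1 CKO 2 and 4.26 in Control 1, and Olfr554 had 3.51 and 5.16 in these libraries. Olfr549, with summits 6 bp apart, had 3.47 in Bmal1 CKO 2 and 3.76 in Control 1, and Olfr550 had 3.37 and 5.16. The other 10 shared members had folds of 2.63 to 3.81 in Bmal1 CKO 2 and 2.69 to 5.38 in Control 1. Among them Olfr544, a receptor for azelaic acid, had 3.03 in Bmal1 CKO 2 and 3.59 in Control 1.

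The fold was higher in Control 1 at 17 of the 20 shared members, the exceptions being Olfr612, Olfr569 and Olfr692. The fold of each peak is relative to its own library, and the median over all listed peaks was 2.96 in Bmal1 CKO 2 and 3.54 in Control 1. With 1 library per genotype the difference has no replicate check and was not tested.

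**Figure D4:**
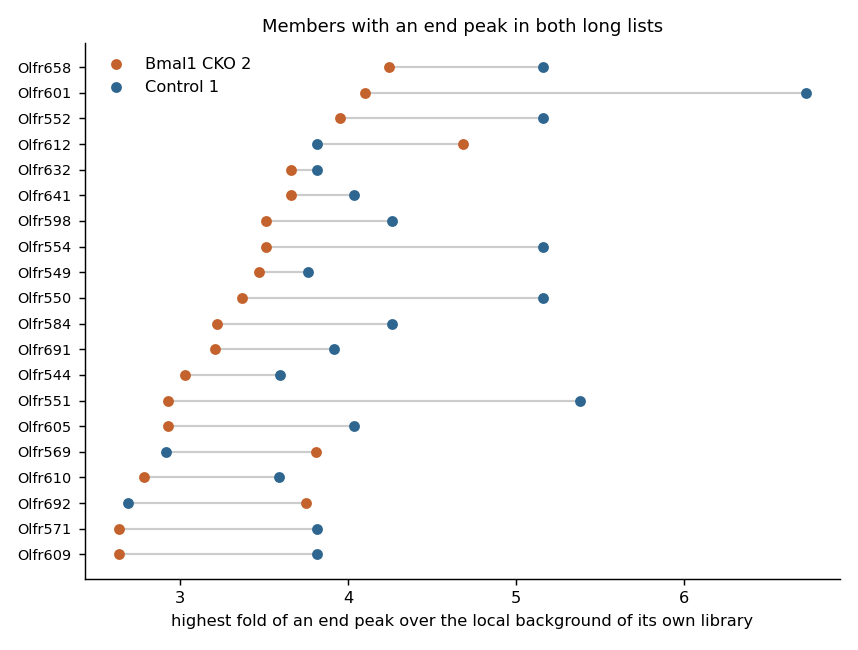
Highest fold of an end peak at the 20 members listed in both long lists, in Bmal1 CKO 2 and Control 1, each relative to the local background of its own library. Lines join the values of a gene. The folds run from 2.63 to 4.68 in Bmal1 CKO 2 and from 2.69 to 6.73 in Control 1.

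Members listed in a single long list had folds in the same low range. The 10 members with an end peak in Bmal1 CKO 2 alone had highest folds of 2.49 to 3.66 (median 3.19). Olfr686 led them with 3.66, followed by Olfr639 and Olfr690 with 3.37 each and Olfr624 and Olfr689 with 3.22 each. The 13 members in Control 1 alone had 2.91 to 4.04 (median 3.59). Olfr553, Olfr633, Olfr685 and Olfr560 had 4.04 each, from 17 fragments (9.90 to 27.2), and Olfr591 had 3.81. The shared members had medians of 3.49 in Bmal1 CKO 2 and 3.97 in Control 1. Of all members 83 had no end peak in any list, among them Olfr78 and Olfr558.

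The share of members with an end peak was lower above the Trim genes than below the beta-globin genes in both long lists, but not evenly so and with overlapping intervals. These stretches were chosen after seeing values. Below the beta-globin genes 19 of 73 members (26.0%) had an end peak in Bmal1 CKO 2 and 23 of 73 (31.5%) in Control 1. Between the beta-globin and Trim genes 5 of 18 (27.8%) and 4 of 18 (22.2%) did. Above the Trim genes 6 of 35 (17.1%) did in each of the long lists. Split into bins of 500 kb, the 19 of these members in the lower bin had 1 in Bmal1 CKO 2 and 3 in Control 1. The 16 in the upper bin had 5 and 3. The exact 95% binomial intervals overlapped, with 16.5% to 37.6% below the beta-globin genes and 6.56% to 33.6% above the Trim genes in Bmal1 CKO 2, and 21.1% to 43.4% and 6.56% to 33.6% in Control 1. The 32 receptor pseudogenes of the interval, which were not members, had an end peak at 6 (18.8%) in Bmal1 CKO 2 and 4 (12.5%) in Control 1.

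The embedded beta-globin genes had weak peaks, and the long lists named different ones. Of the 5 genes, 2 had an end peak in Bmal1 CKO 2 and 2 in Control 1, 0 in both, and 0 in the other 4 libraries. In Bmal1 CKO 2 the adult gene Hbb-bt (chr7:103812524-103813923) had a fold of 2.93 from 19 fragments and Hbb-bh2 (chr7:103838801-103840734) had 2.63 from 17. In Control 1 the embryonic gene Hbb-bh1 (chr7:103841638-103843162) had 3.81 from 16 fragments and the embryonic gene Hbb-y (chr7:103851754-103853207) had 3.14 from 13. The adult gene Hbb-bs (chr7:103826523-103827928) had none. With 5 genes the exact 95% binomial interval of a share of 40% is 5.27% to 85.3%, so the members' shares of 23.8% and 26.2% could not be told from it.

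Olfr642 in Bmal1 CKO 2 (summit 104050370) and Hbb-y in Control 1 (summit 103853189) had a summit close to the annotated start. They are shown as the contrast to Olfr601 and Olfr552, with capitals on the bases within 10 of the summit. The window of Hbb-y is chr7:103853158-103853457 and that of Olfr642 is chr7:104050303-104050602, both on the minus strand.
Hbb-y: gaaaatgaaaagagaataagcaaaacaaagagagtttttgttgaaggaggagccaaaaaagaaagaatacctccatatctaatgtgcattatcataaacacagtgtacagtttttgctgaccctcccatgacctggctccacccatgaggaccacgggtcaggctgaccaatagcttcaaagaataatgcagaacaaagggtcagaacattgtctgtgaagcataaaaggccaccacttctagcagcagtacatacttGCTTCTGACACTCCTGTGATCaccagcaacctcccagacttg
Olfr642: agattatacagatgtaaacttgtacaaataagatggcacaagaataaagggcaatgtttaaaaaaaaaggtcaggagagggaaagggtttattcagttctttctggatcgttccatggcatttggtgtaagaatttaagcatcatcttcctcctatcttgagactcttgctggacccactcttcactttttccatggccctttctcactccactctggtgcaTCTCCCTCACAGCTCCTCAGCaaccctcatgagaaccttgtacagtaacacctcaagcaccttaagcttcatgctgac

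In Hbb-y the marked bases are centred 18 bp inside the gene from its annotated start. In Olfr642 they are centred 18 bp before the annotated start. No summit was listed in any library in the 0.0281 Mb between Hbb-y and the next member, Olfr66, nor in the 0.0207 Mb between Hbb-bt and the nearest member below it, Olfr67. The globin locus control region, a far enhancer of these genes, is known to lie beyond the Hbb-y side, but no annotation of it was used here.

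The motif CACGTG, the E-box bound by CLOCK and BMAL1, was rare in the windows around the annotated starts of members, as in those of other receptor genes. It was searched as these letters, which read the same on both strands, and stood in 2 of 109 member windows (1.83%), against 2.15% of the 839 windows of other receptor genes and 7.15% of all 32851 windows. The 2 members, Olfr645 and Olfr688, had no end peak in any list. The letters TAATTA, a core that homeodomain factors such as Lhx2 bind, also the same on both strands, stood in 16 of 109 windows (14.7%), against 19.1% of the windows of other receptor genes and 5.29% of all windows. They stood in 4 of the 26 windows of members with an end peak in Bmal1 CKO 2 (15.4%) and in 3 of 26 in Control 1 (11.5%). Only these windows around the annotated start were searched for both motifs. Most summits of the members' end peaks lay further inside the gene, beyond these windows. Whether the sequence under the peaks holds either motif was not tested.

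Peaks between genes were sparser in the cluster than in the summed flanks in both long lists with all listed peaks. Among peaks with a fold of at least 4 the mean difference over libraries was near 0, and the cluster was sparser in at most 1 of the long lists. Outside every protein-coding gene the interval held 67 summits in Bmal1 CKO 2 (27.4 per Mb) and 85 in Control 1 (34.7 per Mb), and none in the other 4 libraries. The flanks of 2 Mb on each side held 38.5 and 51.9 per Mb. The lower flank had 62.7 and 94.9 per Mb, whereas the upper flank, which holds a further block of receptor genes, had 28.0 and 33.2. Chromosome 7 from its first to its last gene had 48.0 and 61.9 per Mb. Over the 6 libraries the cluster minus flank difference was −4.71 summits per Mb (exact sign-flip permutation test, two-sided, p = 0.5, the smallest possible with 4 libraries at 0). It was negative in 2 of 6 libraries and 0 in the other 4. With a fold of at least 4 it was −0.153 (p = 1, same exact permutation test), and with a −log10 q-value of at least 5 it was −0.587. Between genotypes the density was 9.12 ± 15.8 per Mb in Bmal1 CKO libraries and 11.6 ± 20.1 in Control libraries (SD, n = 3 each), and the exact permutation test gave p = 1. The difference of −2.45 became 9.12 without Control 1 and 2.11 without Bmal1 CKO 1 or Bmal1 CKO 3, and was −11.6 without Bmal1 CKO 2 and −8.24 without Control 2 or Control 3.

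The highest folds between genes stood several kb from any protein-coding gene, some of them on receptor pseudogenes in Bmal1 CKO 2. In Bmal1 CKO 2 the first was 4.68, at 104614576, 3.08 kb from Olfr656, with no overlapping peak in Control 1. The next were 4.24 inside the pseudogene Olfr1527-ps1, 4.24 at 6.81 kb from Usp17ld (4.48 in Control 1), 4.10 at 6.65 kb from Usp17lb (5.38 in Control 1) and 3.95 inside the pseudogene Olfr567-ps1. In Control 1 the first were 6.95 at 103410059, 6.64 kb from Usp17lc, where Bmal1 CKO 2 had 2.93, and 6.95 at 104120837, 7.08 kb from Ubqln5, where it listed none. The next were 6.05 at 11.1 kb from Olfr688 and 5.83 at 6.52 kb from Olfr691, both without a peak in Bmal1 CKO 2, and 5.60 at 10.4 kb from Usp17le, where Bmal1 CKO 2 had 3.81. Receptor pseudogenes held 5 of the 67 summits between genes in Bmal1 CKO 2 and 3 of 85 in Control 1. Of all 165 peaks of the interval in Bmal1 CKO 2, 105 (63.6%) overlapped a Control 1 peak, and of the 210 in Control 1, 104 (49.5%) overlapped Bmal1 CKO 2, against 54.1% and 40.7% genome-wide.

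Other genes of the interval and the flanks, each taken as a whole, had higher shares with an end peak than the members, but single families did not all do so. Of the 40 protein-coding genes of the interval that are neither receptors nor globins, 19 (47.5%) had one in Bmal1 CKO 2 and 21 (52.5%) in Control 1. They include Nup98 and Pgap2, which share a start region and a peak with folds of 4.67 in Bmal1 CKO 2 and 7.03 in Control 1. Of the 12 Trim genes, which encode ubiquitin ligases with antiviral members, 4 (33.3%) had one in Bmal1 CKO 2 and 3 (25%) in Control 1, the second share being below that of the members. Of the 3 Ubqln genes 2 and 3 did. Of the 5 Usp17l genes 1 (20%) did in Bmal1 CKO 2, below the members' share, and 2 (40%) in Control 1. Of the 78 flank genes 34 (43.6%) and 42 (53.8%) had one. Among these the 25 receptor genes had 3 (12%) and 4 (16%), and the 53 other genes had 31 (58.5%) and 38 (71.7%). Members minus flank genes was −7.91 percentage points over the 6 libraries (exact sign-flip permutation test, two-sided, p = 0.5, the smallest possible with 4 libraries at 0), negative in 2 of 6 libraries. The design thus cannot put a difference between members and flanks past 0.05. Without Control 1 it was −3.96, and the cluster minus flank density was then −2.23 per Mb.

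**Figure D5:**
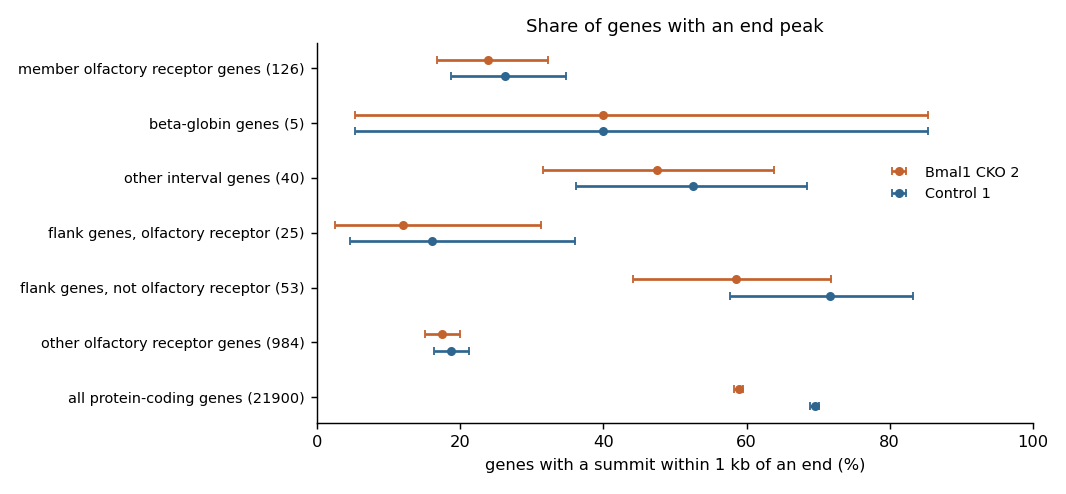
Share of genes with a summit within 1 kb of an end, in percent, for 7 gene groups with their size in brackets, in Bmal1 CKO 2 and Control 1. Points are shares and bars exact 95% binomial intervals, which cover counting error only. Members lie at 23.8% and 26.2%, between other receptor genes at 17.4% and 18.7% and genes of other kinds.

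Among receptor genes the members had somewhat higher shares than the rest, with overlapping intervals in both long lists. The 984 receptor genes elsewhere had an end peak at 17.4% (15.1% to 19.9%) in Bmal1 CKO 2 and 18.7% (16.3% to 21.3%) in Control 1, against member intervals of 16.7% to 32.2% and 18.8% to 34.8%. The 287 on chromosome 2 had 9.06% (6.00% to 13.0%) and 6.62% (4.03% to 10.1%). The difference was not tested over libraries, since 4 of 6 list no end peak at any member. The pathway downstream of the receptors was near the level of all genes. Of 17 olfactory transduction genes 10 had an end peak in both long lists (58.8%), beside 54.7% of the 21900 genes in both, 58.9% in Bmal1 CKO 2 and 69.5% in Control 1. Cnga4, a subunit of the olfactory channel, lies inside the interval and shares with Fam160a2 a peak with folds of 3.65 in Bmal1 CKO 2 and 4.40 in Control 1. The G protein gene Gnal had 2.62 and 4.41, the chloride channel gene Ano2 had 3.37 and 3.44, and the receptor escort genes Rtp1 and Rtp2 had none. Of 14 factors of receptor choice, 7 (50%) had one in Bmal1 CKO 2 and 11 (78.6%) in Control 1, also near these shares of all genes. Lhx2 had 3.15 and 4.05, whereas Bcl11b, which limits class I choice, had 2.65 in Control 1 alone. Of 10 erythroid markers 3 (30%) had one in Bmal1 CKO 2 and 5 (50%) in Control 1, beside the same 58.9% and 69.5% of all genes.

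Scaled for background alone, no member peak of the long lists would have reached the lowest listed p-value in 3 of the 4 short lists. Scaled to the background of Bmal1 CKO 3, Control 2 and Control 3, 0 of the 33 members of Control 1 and 0 of the 30 of Bmal1 CKO 2 would have reached the lowest −log10 p-value of those lists, which was 5.05 to 6.76. Scaled to Bmal1 CKO 1, 3 of the 30 from Bmal1 CKO 2 and 23 of the 33 from Control 1 would have, and its list held none of them. Over the 21900 genes that list had an end peak at 0.342%. The lowest listed p-value served as the cut-off here, and the part of depth in the short lists was not tested.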

How the data were processed

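BMAL1 ChIP-seq peak lists of 6 retina libraries were used, 1 per library, assigned by the series record. The lists carry file codes that do not follow the sample numbering, so the library numbers, and the replicate block and pairing check that use them, rest on the labels. Per the submitters' processing notes, Trim Galore, Bowtie2, MACS2 and mm10 were used. Their versions and parameters, and whether an input was used, are not stated in these notes. Each peak, as the authors deposited it, has a summit, a fold (ratio) over local background, a −log10 p-value, a −log10 q-value and a score of 10 times that −log10 q-value, rounded down. The treatment of reads with several matches is not stated, so peaks at near-identical receptor copies are uncertain.

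Genes came from the RefSeq table of GRCm38.p6. A summit within 1 kb of either annotated end made an end peak, and "between genes" means outside every protein-coding gene. Stacked fragments and background were solved from fold (pseudocount 1) and Poisson p-value, which matched within 0.001 for 100% of the peaks tried in every library (all peaks of the short lists, 3000 of each long one). The counting, solving and permutation steps were tested on simulated data. Genotypes were compared by exact permutation over libraries and regions by exact sign flips. Whether libraries of a genotype came from separate mice is given only by the design note of 3 against 3 mice.

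The members and lists were chosen with earlier results of these data known. The text names up to 10 members with end peaks in both long lists by the lower fold, up to 5 in a single one, all globin genes and the 5 highest peaks between genes per long list. The gene body, the stretches and other members named were chosen after seeing values. Alternatives were the window, peak thresholds, list lengths, left-out libraries, a replicate block, the gene set and the flanks. Python 3.11.15, numpy 2.4.6, pandas 2.3.3, scipy 1.17.1 and matplotlib 3.10.9 were used.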

Additional observations from a re-analysis of the deposited data

How the results depend on the processing

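Counts of members moved with the peak threshold and the list length. With a −log10 q-value of at least 5, 9 members had an end peak in Bmal1 CKO 2, 15 in Control 1 and 4 in both, and with a fold of at least 4 they were 3, 14 and 2. The differences at these thresholds were −1.59 and −2.91 percentage points for the genotypes' share of members, −3.54 and −4.77 per Mb for their density between genes, −6.23 and −2.67 points for members minus flank genes, and −0.587 and −0.153 per Mb for cluster minus flank density (exact permutation p = 1 for the last value). The cause was not tested. With the 372 strongest peaks per library all 3 counts were 0, and so were all 4 differences, as they were without the long list of each genotype, where by construction no peak of the interval is left. With the Control 1 list shortened to 138254 peaks, the genotype difference in the share of members turned to 1.06 percentage points and that in density between genes to 0.136 per Mb. Leaving out single libraries gave −8.73 to 7.94 and −11.6 to 9.12 for these 2 differences, −9.49 to −3.96 for members minus flank genes and −5.66 to −2.23 for cluster minus flank density. Under the other windows, any-base overlap, members apart from other genes and members of any gene type, counts were 27 to 36 in Bmal1 CKO 2, 31 to 38 in Control 1 and 18 to 23 in both. With labels exchanged only within a replicate number (replicate block), the differences were −0.794 and −2.45 with exact permutation p = 1. Deviations of same-numbered libraries correlated at −0.671, −0.833 and 0.735 for numbers 1, 2 and 3 over 2609 bins of 1 Mb. Numbers 1 and 2 each set a long list against a short one, and number 3 sets short lists only. These values therefore cannot say whether the numbers pair libraries. Summits inside the gene, flanks of 1 Mb and flanks without receptor genes kept the direction, and of these the first and last were added after seeing the data. No member result has a second library of its genotype.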

Other observations

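The letters TATAAA or TTTATA stood in 43 of 109 member windows (39.4%), against 13.6% of all windows and 41.2% of 839 windows of other receptor genes. Members with an end peak held them less often, at 3 of 26 (11.5%) against 40 of 83 without one in Bmal1 CKO 2 (48.2%), and 7 of 26 (26.9%) against 36 of 83 (43.4%) in Control 1. The median share of G and C in the 250 bases before the start was 39% and 35.6% in these sets of Bmal1 CKO 2, and 38% and 36% in Control 1. These values were seen first and were not tested.

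Short genes of other kinds also held summits inside. Of 974 protein-coding genes of up to 1200 bp that are no receptors, 245 (25.2%) in Bmal1 CKO 2 and 295 (30.3%) in Control 1 did, against 25 (22.9%) and 28 (25.7%) of the 109 members of that length. Per Mb of gene body they held 334 summits in Bmal1 CKO 2 and 403 in Control 1, against 245 and 274 in these members. Within 1 kb outside them the density was 48.7 and 49.3 summits per Mb, against 13.9 and 4.63 outside the members. Outside the 831 receptor genes of that length elsewhere it was 10.3 in each long list, so a low density there was not particular to the members.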
